A study of Drosophila melanogaster with 6 samples.

Results

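The genes described here encode the actin machinery that works at the site where myoblasts fuse: the SCAR complex (SCAR, Hem, Abi, Sra-1 and HSPC300), WASp with its partners Vrp1 and blow, and the Rac GTPases Rac1 and Rac2. They were taken by gene symbol and make 10 of the 15135 features measured. The data are polyA RNA-seq of whole Drosophila melanogaster embryos at stage 14, with 3 wild-type libraries and 3 from spo mutants. Flies need spo (spook), a cytochrome P450 enzyme gene, to make ecdysone, and the study asked which genes lie downstream of that steroid hormone. The labels name no allele, no driver and no further treatment for either genotype, and do not say whether libraries came from separate embryo collections, so the p-values here speak only for the variation among these 6 libraries, which may be technical.

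Somatic muscle fibres of the fly embryo form when fusion-competent myoblasts join a founder cell. At the contact, the fusion-competent cell builds a dense focus of branched actin that pushes into its partner. Branching is carried out by the Arp2/3 complex, which is switched on by proteins of the SCAR (WAVE) and WASp families. SCAR is held inactive in a complex with its other subunits until GTP-bound Rac binds that complex. WASp is stabilised and recruited through Vrp1, the fly WIP protein, and blow competes with WASp for Vrp1 and so speeds its exchange. Many of these genes also act in other embryonic tissues, and in whole embryos fewer cells of a type and less RNA per cell cannot be told apart.

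Rebuilt library totals ran from 50382342 to 73953095 reads, and libraries of the same genotype correlated at 0.995 to 0.998 on the log2(TPM + 1) scale, those of different genotypes at 0.97 to 0.975. The spo transcript stood at 0.944, 0.726 and 0.696 TPM (a level per gene length, scaled to the same sum in every library) in wild-type replicates 1, 2 and 3 and at 0.61, 0.47 and 0.306 TPM in spo replicates 1, 2 and 3. The muscle markers fixed for a check of the tissue were all present, with a summed level of 599.8 to 601.1 TPM in wild type and 557.1 to 559.7 TPM in spo. Of 8 markers of maternal transcripts 7 rose (33.9% of all tested features did). The summed level of the 8 was 7.816 to 8.424 TPM in wild type and 145.2 to 184.9 TPM in spo. Neuron markers fell in 5 of 6 cases (27.9% of all tested features fell). Their sums were 251.9 to 266.7 TPM in wild type and 176.8 to 217 TPM in spo. The part of these shifts in the results on the actin genes was not tested.

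All 10 genes were well above the filter of 1 TPM and rested on 1239 to 26540 reads per library. With genotype as the only term in limma and a Benjamini-Hochberg adjusted p below 0.05 over all 10019 features tested, 3 of the 10 fell in spo (SCAR, Hem and Abi) and 2 rose (blow and Rac2). Over all tested features 27.9% fell and 33.9% rose, 61.7% together, so the share of 50% among these genes lies near the background. The changes were small: the largest absolute log2 difference among the 10 was 0.264, and 35.6% of all tested features differed by more. The median absolute difference was 0.11 for the 10 genes and 0.177 over all features. Tested against a log2 change of 0.5, none of the 10 was called, against 8.68% of all features, and every 95% interval of a difference lay between -0.32 and 0.32.

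**Figure D1:**
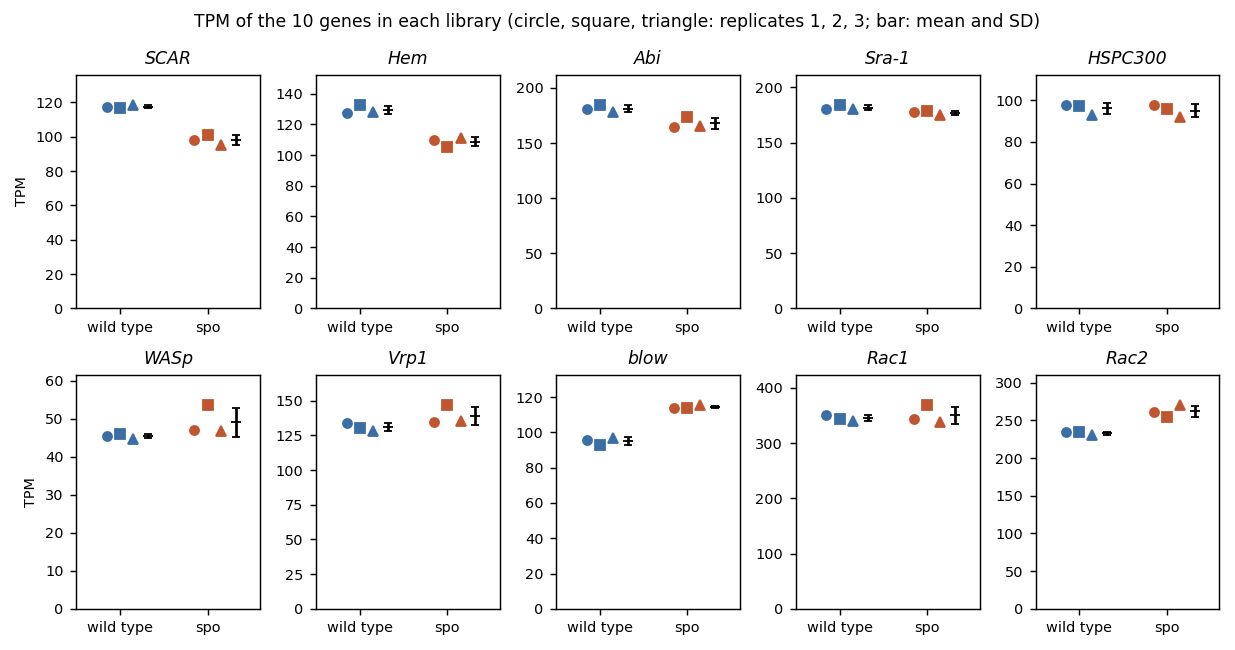
Level of each gene in TPM (vertical axes, from 0) in wild-type (blue) and spo (orange) libraries, with replicates as circles, squares and triangles and the mean and SD (n = 3) in black. The spo libraries of SCAR, Hem and Abi lie under all wild-type libraries and those of blow and Rac2 above them. Spo replicate 2 (square) is the highest spo library for SCAR, Abi, Sra-1, WASp, Vrp1 and Rac1.

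Within the SCAR complex, SCAR, Hem and Abi fell, Abi with the smallest difference of the 3, and Sra-1 and HSPC300 did not pass the threshold. SCAR, the subunit that activates Arp2/3, stood at 117.4, 117.0 and 118.5 TPM in wild-type replicates 1, 2 and 3 and at 98.08, 101.1 and 95.22 TPM in the spo replicates. Every spo library was below every wild-type library, and the gap exceeded the spread within either genotype. The SD was 0.758 TPM in wild type and 2.95 TPM in spo. The difference in log2(TPM + 1), taken as spo minus wild type, was -0.26 (SE 0.026, limma adjusted p = 0.000132), a change of -16.6% in mean TPM. Hem, also called Kette, the Nap1 scaffold subunit paired with Sra-1, stood at 127.4, 132.6 and 128.0 TPM in wild type and at 110.1, 105.4 and 110.9 TPM in spo. Its groups did not overlap either, and the log2 difference was -0.25 (SE 0.028, adjusted p = 0.000234), or -15.9%.

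Abi, the Abl-interacting adaptor that joins SCAR to the scaffold, stood at 180.9, 184.5 and 178.5 TPM in wild type and at 164.4, 173.4 and 165.6 TPM in spo. The groups did not overlap, but spo replicate 2 came within a few TPM of the lowest wild-type library. The log2 difference was -0.11 (SE 0.026, adjusted p = 0.00826), or -7.45%. Sra-1, named Cyfip in the reference annotation, carries the Rac-binding surfaces of the complex. It stood at 180.3, 184.1 and 180.6 TPM in wild type and at 178.1, 178.4 and 174.9 TPM in spo. All spo libraries lay below wild type, by a margin close to the spread within a genotype, and the log2 difference of -0.04 (95% interval -0.08 to 0.01, adjusted p = 0.135) did not pass the threshold. It passed with median-of-ratios scaling (-0.06, adjusted p = 0.0299), and over the settings tried apart from the test against a log2 change of 0.5 its adjusted p ran from 0.0299 to 0.356.

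HSPC300, the small Brick1 subunit, stood at 97.74, 97.48 and 93.06 TPM in wild type and at 97.67, 95.81 and 91.83 TPM in spo. The genotypes overlapped, and the log2 difference was -0.01 (95% interval -0.09 to 0.06, adjusted p = 0.705). It is the shortest of the 10 genes and had the fewest reads, 1239 to 1726 per library. Summed over its subunits, the SCAR complex stood at 703.7, 715.7 and 698.6 TPM in wild type and at 648.3, 654.1 and 638.5 TPM in spo.

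**Figure D2:**
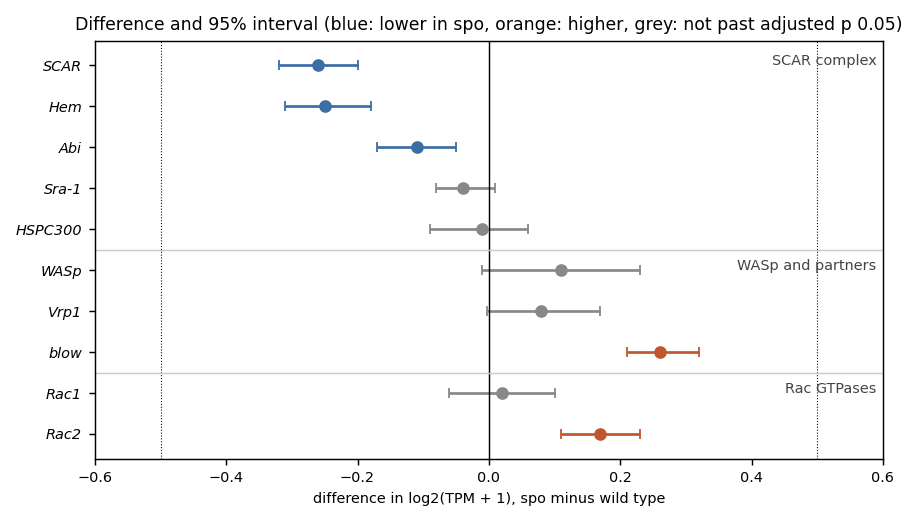
Difference in log2(TPM + 1), spo minus wild type (horizontal axis), with its 95% interval from limma for each gene; dotted lines mark 0.5 in either direction. SCAR (-0.26) and Hem (-0.25) lie furthest to the left and blow (0.26) furthest to the right, and all intervals stay inside the dotted lines.

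In the WASp group, blow rose and WASp and Vrp1 did not pass the threshold. The gene blow (blown fuse), needed in fusion-competent myoblasts, stood at 95.73, 92.94 and 97.11 TPM in wild type and at 114.1, 114.1 and 115.4 TPM in spo. The spo libraries were nearly equal to each other and all above wild type. The log2 difference was 0.26 (SE 0.023, adjusted p = 6.77e-05), a rise of 20.2% in mean TPM.

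WASp, the Arp2/3 activator that needs Vrp1, had the lowest level of the 10 genes, at 45.55, 45.9 and 44.74 TPM in wild type and at 47.04, 53.52 and 46.82 TPM in spo. All spo libraries were above wild type, but replicate 2 stood well above the other spo libraries, which gave a coefficient of variation of 7.75% in spo and 1.31% in wild type. The log2 difference was 0.11 (95% interval -0.01 to 0.23, adjusted p = 0.108) and became 0.05 without spo replicate 2. Vrp1 (verprolin 1), which stabilises WASp and brings it to the fusion site, stood at 134.0, 130.6 and 128.3 TPM in wild type and at 134.7, 146.6 and 135.5 TPM in spo. Its lowest spo library exceeded the highest wild-type library by less than 1 TPM, and replicate 2 was again the highest. The log2 difference was 0.08 (95% interval up to 0.17, adjusted p = 0.0826) and became 0.04 without that library. With voom on rebuilt reads WASp (0.12, adjusted p = 0.0399) and Vrp1 (0.09, adjusted p = 0.0261) passed, while over the settings tried, again apart from the test against 0.5, the highest adjusted p was 0.229 for WASp and 0.213 for Vrp1.

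Rac1 and Rac2 are closely related GTPases with overlapping roles in fusion, of which Rac2 rose in spo and Rac1 did not pass the threshold. Rac1, the most abundant of the 10 genes, stood at 351.5, 343.1 and 340.7 TPM in wild type and at 343.6, 368.2 and 338.3 TPM in spo. The genotypes overlapped, with spo replicate 2 highest and spo replicate 3 lowest of all libraries, and the log2 difference was 0.02 (95% interval -0.06 to 0.1, adjusted p = 0.639). Its sign turned without spo replicate 2 (-0.02), with library weights (-0.01) and with median-of-ratios scaling (-0.00092). Rac2 stood at 234.0, 234.7 and 230.8 TPM in wild type and at 261.5, 254.3 and 270.0 TPM in spo. All spo libraries were above all wild-type libraries, and the log2 difference was 0.17 (SE 0.025, adjusted p = 0.000981), or 12.4%. The sources used here do not give how reads that fit both genes were counted, so the split between Rac1 and Rac2 is uncertain. The deposited Rac2 values gave whole reads for a searched gene length of 3084 bases, while the reference annotation has 2429 bases of exon. All rebuilt Rac2 counts were even, so a shorter length also gives whole reads. In wild-type replicate 1 the rebuilt count was 18128 for Rac2 and 15940 for Rac1. The deposited mean log2 CPM was 7.36 for Rac2 and 8.08 for Rac1. The searched length is thus likely a multiple of the one the authors used, and the rebuilt Rac2 counts are likely too high. A length other than the annotated one affects the level of Rac2 against other genes but not the comparison of genotypes, unless reads of another gene were counted.

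Across the 10 genes, spo replicate 2 departed from the mean of the other spo libraries by 0.19 for WASp, 0.12 for Vrp1 and 0.11 for Rac1 on the log2(TPM + 1) scale, and by -0.07 to 0.07 for the other 7. Over all tested features the middle 90% of such departures ran from -0.21 to 0.28. The calls of SCAR, Hem, Abi, blow and Rac2 did not rest on it: without it the differences were -0.28, -0.22, -0.14, 0.27 and 0.19, all past the threshold.

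In the authors' deposited table the same 5 genes had a false discovery rate below 0.05, against 56.2% of the tested features. The log2 fold changes there, positive where spo is higher, were -0.281 for SCAR, -0.268 for Hem, -0.131 for Abi, 0.246 for blow and 0.149 for Rac2. For the other 5 they ran from -0.0561 for Sra-1 to 0.0943 for WASp, with false discovery rates of 0.172 or more. Replicate ranges of the genotypes did not overlap for 8 of the 10 genes, against 68.4% of all tested features. They lay lower in spo for SCAR, Hem, Abi and Sra-1 (30.8% of all tested features) and higher for WASp, Vrp1, blow and Rac2 (37.6%).

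Ratios between genes within a library do not depend on how libraries are scaled, and describe the proportions of transcripts within each group. The 8 ratios were compared by an exact two-sided permutation test over the 6 libraries, for which 0.1 is the smallest p that 3 against 3 libraries allow, so no ratio could pass 0.05. Hem over SCAR was 1.08, 1.13 and 1.08 in wild type and 1.12, 1.04 and 1.16 in spo, and the genotypes overlapped (exact p = 1). Sra-1 over SCAR was 1.54, 1.57 and 1.52 in wild type and 1.82, 1.76 and 1.84 in spo, a log2 difference of 0.23 with no overlap (exact p = 0.1, adjusted over the 8 ratios 0.16).

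HSPC300 over SCAR averaged 0.817 ± 0.0273 in wild type and 0.969 ± 0.0245 in spo (SD, n = 3), and Abi over SCAR averaged 1.54 ± 0.0348 and 1.71 ± 0.0319, each with ranges apart (exact permutation p = 0.1, adjusted 0.16). Relative to SCAR, these subunits were higher in every spo library than in any wild-type library. The ratios share SCAR as their denominator, and its mean TPM changed by -16.6% in spo. The mean TPM of Sra-1 (-2.5%), HSPC300 (-1.03%) and Abi (-7.45%) was itself not higher in spo. The most abundant subunit was 1.85, 1.89 and 1.94 times the least abundant in the wild-type libraries and 1.82, 1.86 and 1.9 times in the spo libraries. Because levels per length still carry gene-specific biases of library preparation, these spans between genes are less certain than the comparison of 1 ratio across libraries.

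Vrp1 over WASp was 2.94, 2.85 and 2.87 in wild type and 2.86, 2.74 and 2.89 in spo, with overlap (exact p = 0.5, adjusted 0.571). In spo replicate 2, where both genes were at their highest, this ratio was the lowest of the 6. For the other partner, blow over WASp was 2.1, 2.02 and 2.17 in wild type and 2.43, 2.13 and 2.47 in spo, with replicate 2 inside the wild-type range (exact p = 0.2, adjusted 0.267). Rac2 over Rac1 was 0.666, 0.684 and 0.677 in wild type and 0.761, 0.691 and 0.798 in spo, with ranges just apart (exact p = 0.1, adjusted 0.16). The log2 difference of 0.15 became 0.21 without spo replicate 2 and 0.1 without spo replicate 3.

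The sum of WASp, Vrp1 and blow, set over the mean SCAR complex subunit, was 1.96, 1.88 and 1.93 in wild type and 2.28, 2.4 and 2.33 in spo. All spo libraries were higher, by 0.28 on the log2 scale (exact p = 0.1, adjusted 0.16), and leaving out any 1 library gave 0.26 to 0.3. Of the summed genes only blow passed the threshold by itself, and of the subunits only SCAR, Hem and Abi. The ratio thus does not show that either group moved as a whole. Set over the median subunit in place of the mean, the difference was 0.4. The median subunit was Hem in every library, so this value compares the WASp group with Hem alone, a gene that fell in spo. The sum itself was 275.2, 269.5 and 270.1 TPM in wild type and 295.8, 314.2 and 297.8 TPM in spo.

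**Figure D3:**
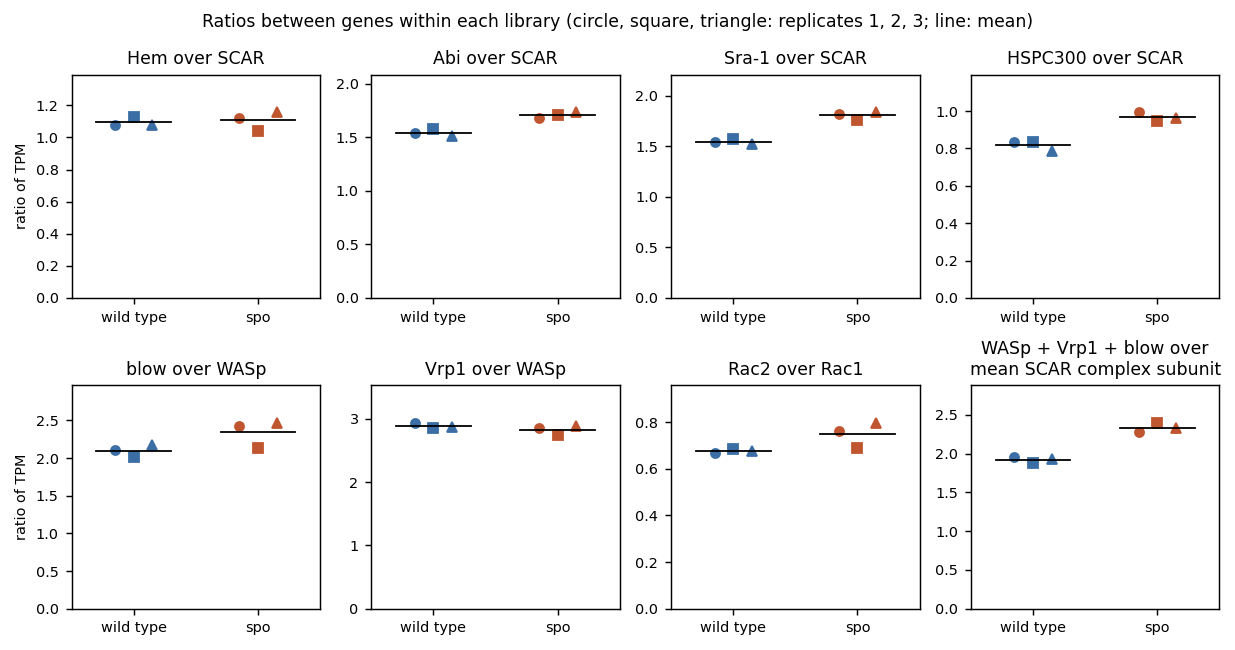
Ratios of TPM between genes within each library (vertical axes, from 0), with replicates as circles, squares and triangles and the mean as a line. Abi, Sra-1 and HSPC300 over SCAR and the WASp group over the SCAR complex lie higher in every spo library than in any wild-type library, while Hem over SCAR and Vrp1 over WASp overlap.

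By level in wild type the order was Rac1 (345.1 TPM), Rac2 (233.1), Sra-1 (181.7), Abi (181.3), Vrp1 (131.0), Hem (129.3), SCAR (117.6), HSPC300 (96.09), blow (95.26) and WASp (45.4). Sra-1 and Abi, Vrp1 and Hem, and HSPC300 and blow had overlapping replicate ranges there, while the other neighbours in the order were apart. In spo the ranges of Sra-1 and Abi and of Vrp1 and Hem were apart. blow, level with HSPC300 in wild type, averaged 114.5 TPM in spo, where HSPC300 averaged 95.11 and SCAR 98.14. In wild type WASp was at the 60.8th percentile of tested features by level, and the other 9 genes lay between the 80.8th and the 96th.

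In the dm6 build the genes lie apart on 2 chromosomes. SCAR (FBgn0041781) lies at 2L, 10976772 to 10982395, HSPC300 (FBgn0061198) at 2R, 24027717 to 24028789, Vrp1 (FBgn0243516) at 2R, 22106107 to 22122562, and blow (FBgn0004133) at 2R, 7580488 to 7587079. On the third chromosome, Hem (FBgn0011771) lies at 3L, 22284354 to 22288195, Rac1 (FBgn0010333) at 3L, 1300879 to 1302683, and Rac2 (FBgn0014011) at 3L, 7432762 to 7435190. Abi (FBgn0020510) lies at 3R, 14119262 to 14122420, Sra-1 (FBgn0038320) at 3R, 15333266 to 15338365, and WASp (FBgn0024273) at 3R, 28824506 to 28832024. The exons of Rac1 and Rac2 merge into 1 unbroken block each, while Vrp1 has 12 exon blocks and 12 annotated transcripts.

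Some of these genes share exon bases with a gene on the opposite strand, and whether counting used strand is not stated in the labels or files. SCAR shares 191 bases (6.13% of its exon length) with piwi, a gene of the piRNA pathway, which averaged 1.82 ± 0.0314 TPM (SD, n = 3) in the wild-type libraries and 5.33 ± 1.04 TPM in the spo libraries. At the mean read density of piwi these bases would hold reads worth 0.0927% to 0.396% of the SCAR count. Sra-1 shares 458 bases (9.9%) with the gene listed as CG6218, now Nagk, which averaged 60.9 ± 0.516 TPM in the wild-type libraries and 50.3 ± 0.933 TPM in the spo libraries, worth 2.73% to 3.37% of the Sra-1 count. The gene blow shares 188 bases (6.6%) with Vps13 (102 ± 0.453 TPM in the wild-type libraries, 110 ± 3.21 TPM in the spo libraries), which would be worth 6.15% to 7.25% of the blow count. Vrp1 shares 100 bases with mei-S332, worth at most 0.559% of its count, and WASp shares 3 bases with CG1647. The part of such reads in the differences between genotypes was not tested.

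Downstream of both activators, the Arp2/3 complex had log2 differences between -0.19 and 0.03. Of its 8 genes 2 fell, none rose and 6 did not pass, with a median of -0.04, beside 0.0229 over all features. The shares over all tested features were 27.9% lower and 33.9% higher. Arp2, one of the actin-related subunits that form the start of the new branch, fell from 178 ± 3.61 to 155 ± 5.89 TPM (log2 difference -0.19, limma adjusted p = 0.00137). Arpc3B, a lower-expressed paralog of Arpc3A, fell from 27.5 ± 2.06 to 24.1 ± 0.775 TPM (-0.18, adjusted p = 0.0292). Leaving aside the test against 0.5, that call was lost in 5 of 15 other settings, with adjusted p up to 0.0975. Arpc1 (134 ± 2.67 and 135 ± 2.75 TPM), Arpc4 (129 ± 3.55 and 131 ± 5.05 TPM) and Arpc5 (81.3 ± 0.426 and 80.3 ± 1.12 TPM) had log2 differences from -0.02 to 0.03.

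Upstream of SCAR and WASp at the fusion site, 7 of 24 genes rose, 4 fell and 13 did not pass (median 0.03). Over all tested features 33.9% rose and 27.9% fell, so fewer of these genes were called than in the background. The largest fall was that of rols, the founder-cell adaptor, from 34.5 ± 0.777 to 22.1 ± 0.246 TPM (log2 difference -0.62, adjusted p = 7.52e-06). dock, the fly Nck adaptor, which can link membrane receptors to both SCAR and WASp, fell from 138 ± 1.56 to 124 ± 4.52 TPM (-0.16, adjusted p = 0.00268). The receptor gene sns of fusion-competent myoblasts rose from 172 ± 1.68 to 191 ± 0.578 TPM (0.15, adjusted p = 0.00028).

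sing, a membrane protein gene needed for fusion, rose from 30.2 ± 1.18 to 38.0 ± 1.3 TPM (0.32, adjusted p = 0.000383). siz (loner), an exchange factor for Arf GTPases, rose from 83.8 ± 1.6 to 91.2 ± 1.05 TPM. The Arf GTPase gene Arf51F (178 ± 7.44 and 179 ± 18.7 TPM), the kinase gene Abl (40.8 ± 0.176 and 40.8 ± 1.3 TPM) and Mtl, a further Rac-like GTPase gene (150 ± 3.1 and 148 ± 12.3 TPM), did not pass. The genes of the bipartite Rac exchange factor, mbc and Ced-12 (the fly ELMO), named after their values were seen, had log2 differences of 0.01 each, with 95% intervals from -0.04 to 0.05 and from -0.03 to 0.06.

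Among 8 regulators of WASp with F-BAR or SH3 domains, or acting with them, 3 rose and 4 fell. The shares over all tested features were 33.9% and 27.9%. The F-BAR genes Synd, at 111 ± 0.825 and 133 ± 2.37 TPM, and Cip4, at 162 ± 1.16 and 188 ± 2.21 TPM, rose by 0.27 and 0.21 on the log2 scale (adjusted p = 4.33e-05 and 6.36e-05). nwk, an F-BAR gene known for its role at nerve terminals, fell from 10.3 ± 0.421 to 4.34 ± 0.487 TPM (-1.08, adjusted p = 2.85e-05). In the same libraries 5 of 6 neuron markers fell, while brp (2.83 ± 0.118 and 3.19 ± 0.0433 TPM) did not pass. The part of neurons in the nwk difference was not tested. The actin-binding Abp1 rose from 26.6 ± 0.817 to 41.3 ± 2.7 TPM (0.61, adjusted p = 5.41e-05). The tyrosine kinase gene Btk29A fell from 163 ± 2.27 to 136 ± 10.6 TPM and the sorting nexin gene SH3PX1 from 50.1 ± 1.58 to 45.7 ± 0.426 TPM.

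Of 3 other tested genes that act on Arp2/3, 2 rose, none fell and 1 did not pass. Among all tested features 33.9% rose and 27.9% fell. The gene that did not pass was pod1 (200 ± 1.96 and 194 ± 6.53 TPM, log2 difference -0.05, limma adjusted p = 0.165). coro, which encodes coronin, rose from 84.3 ± 0.596 to 107 ± 3.25 TPM (0.34, adjusted p = 4.34e-05). wash, a WASp-family gene of endosomes, rose from 7.04 ± 0.34 to 7.97 ± 0.293 TPM (adjusted p = 0.0433), a call lost in 8 of 15 other settings, with adjusted p up to 0.135 apart from the test against 0.5. Whamy, the remaining WASp-family gene, lay under the filter at 0.276 ± 0.041 and 0.543 ± 0.15 TPM.

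**Figure D4:**
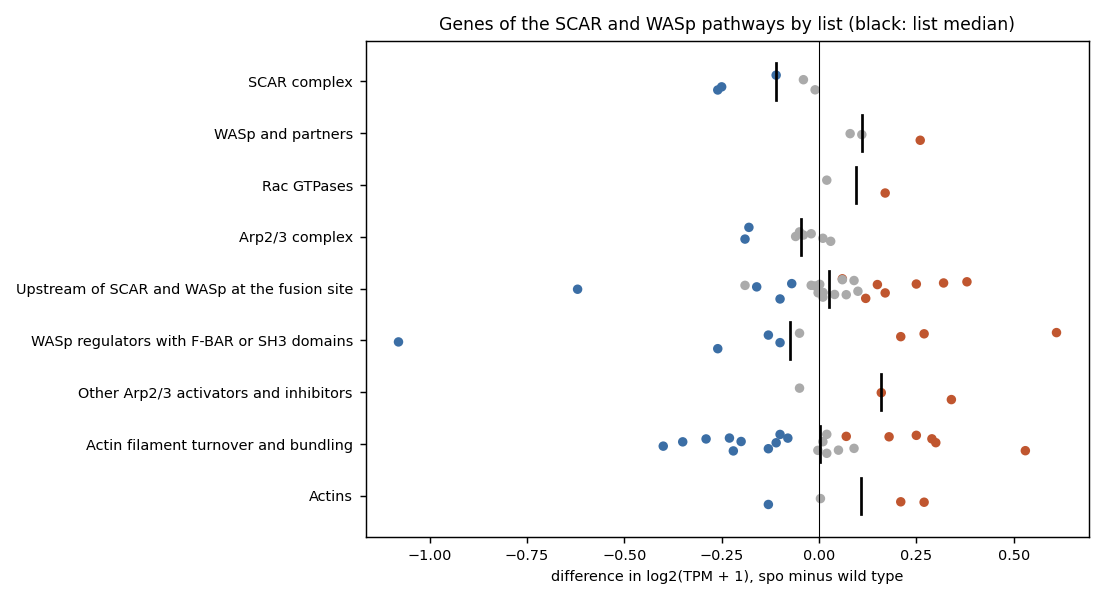
Difference in log2(TPM + 1), spo minus wild type (horizontal axis), for each tested gene of the SCAR and WASp pathways by list; blue genes fell, orange rose, grey did not pass an adjusted p of 0.05, and black bars are list medians. The Arp2/3 genes lie between -0.19 and 0.03, while the lists around the activators spread to both sides, from nwk at -1.08 to Abp1 at 0.61.

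Of 22 genes of actin filament turnover and bundling, 6 rose, 10 fell and 6 did not pass (median log2 difference 0.0017). Over all tested features 33.9% rose and 27.9% fell. Swip-1, an actin-binding EF-hand protein gene, rose from 154 ± 2.48 to 223 ± 2.24 TPM (0.53, adjusted p = 3.03e-06). The formin gene dia rose from 22.4 ± 0.399 to 27.6 ± 0.508 TPM and the nucleator gene capu from 46.1 ± 0.866 to 54.9 ± 1.05 TPM. On the other side, flr, the fly Aip1 that speeds filament disassembly, fell from 99.3 ± 0.86 to 75.2 ± 1.5 TPM (-0.4, adjusted p = 1.19e-05), the gelsolin gene Gel from 49.0 ± 0.739 to 38.1 ± 0.588 TPM (-0.35, adjusted p = 3.63e-05) and beta-Spec from 446 ± 12.1 to 379 ± 3.52 TPM (-0.23). The Ena/VASP gene ena, the fimbrin gene Fim and kst did not pass, with log2 differences from -0.0029 to 0.02.

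Among the actin genes themselves, the cytoplasmic Act5C was the most abundant at 3100 ± 21.7 and 3110 ± 52.8 TPM and did not pass the threshold. Act42A, also cytoplasmic, fell from 1880 ± 16 to 1720 ± 11.7 TPM (-0.13, adjusted p = 0.00105), and the muscle actins Act57B and Act87E rose from 1950 ± 11.8 to 2360 ± 126 TPM (0.27, adjusted p = 0.000733) and from 306 ± 2.36 to 353 ± 0.191 TPM (0.21, adjusted p = 4.46e-05). Actin genes are alike in sequence, so reads that fit several of them may not be told apart. The late actins Act79B and Act88F lay under the filter.

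Of the 10 muscle markers measured beside these genes, 5 rose and 4 fell. For this and the other marker counts, the shares over all tested features were 33.9% higher and 27.9% lower. nau rose from 11.4 ± 0.417 to 16.1 ± 0.222 TPM and sls from 16.7 ± 0.254 to 24.4 ± 0.815 TPM, while Mhc fell from 26.0 ± 0.687 to 9.93 ± 0.443 TPM and Mlc2 from 123 ± 2.83 to 75.1 ± 1.31 TPM. Hemocytes and epidermis also use SCAR and Rac. Of 5 tested hemocyte markers 1 rose and 2 fell, with sums of 264.1 to 274.6 TPM in wild type and 258.7 to 271.9 TPM in spo. Of 8 epidermis markers 2 rose and 5 fell, with sums of 744.1 to 747.8 TPM in wild type and 535.7 to 570.6 TPM in spo. No marker in the lists was at 0 in all libraries. The part of any of these tissues in the levels of the 10 genes was not tested.

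Likeness to SCAR was measured as the distance between log2(TPM + 1) values over the 6 libraries, each gene centred on its own mean. The nearest genes were CG17272 (distance 0.0347), GEFmeso (0.0388), peb (0.0401), Pdp (0.0406) and CadN (0.0418), with log2 differences from -0.28 to -0.24. The nearest to blow were Sr-CII (0.0219), NitFhit (0.0263), Alk (0.0268), CG11180 (0.0338) and wda (0.0364), with log2 differences from 0.26 to 0.28. This is a description over 6 libraries in 2 genotypes. Among the 10 genes the closest pairs were Sra-1 with HSPC300 (0.0722), WASp with Vrp1 (0.074) and Vrp1 with Rac1 (0.083). None of the genes in these pairs passed the threshold, and genes with little difference between libraries lie close by this measure. SCAR with Hem stood at 0.127.

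**Figure D5:**
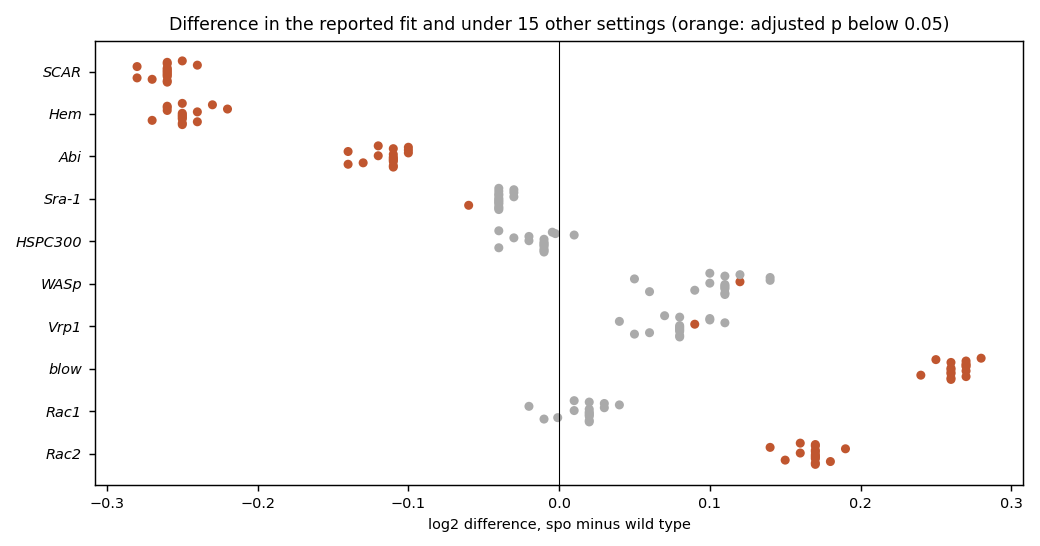
Log2 difference, spo minus wild type (horizontal axis), of each gene in the reported fit and under 15 other settings of filter, scaling, weighting, unit and left-out library; orange points pass an adjusted p of 0.05. SCAR, Hem, Abi, blow and Rac2 pass in every setting shown, Sra-1, WASp and Vrp1 in 1 each, and HSPC300 and Rac1 in none.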

How the data were processed

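The authors deposited TPM for 15135 features in 6 libraries, per the file headers, and a second table with a p-value and false discovery rate, a log2 fold change, a mean log2 CPM and a likelihood ratio score for each. The submitters' processing notes list the dm6 build, STAR 2.5.3a, FastQC 0.11.2, edgeR, Subread and featureCounts. No source used here gives the annotation release or strand setting. TPM is relative, so a rise of some transcripts lowers the others.

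Here limma 3.58.1 (R 4.3.3) with an intensity trend modelled log2(TPM + 1) on genotype alone, over 10019 features of at least 1 TPM in at least 3 libraries. Ratios were tested with scipy 1.17.1. Whole reads were rebuilt from TPM and gene length (tolerance 0.0001): annotated lengths sufficed for 14161 of 14969 matched features, and 974 lengths were searched. A searched length can be a multiple of the one the authors used, as is likely for Rac2. The fit was tested on simulated data with known changes. It called 64 of 96 genes at a log2 change of 0.25, 86 of 96 at 0.5 and 11 of 9665 unchanged features. Changes of 0.25 or less can thus be missed.

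The 10 genes, the lists and the alternatives were chosen with earlier results of these data known. The text names all 10 genes and the 5 nearest genes to SCAR and to blow. From each list the naming rule takes up to 6 changed genes and 3 that did not pass the threshold by p. Not every gene it takes is named, marker lists are mostly given as counts and sums, and 1 changed gene of the list upstream of SCAR and WASp is not reported here. Of the list genes, FAM21, CCDC53, Strump, SWIP and Arpin had no match by the names searched. Same-numbered libraries' deviations correlated at -0.0275, 0.045 and 0.129, and since only 1 exceeds 0.1 the numbers did not count as pairing.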

Additional observations from a re-analysis of the deposited data

How the results depend on the processing

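SCAR, Hem, Abi, blow and Rac2 kept their direction and call in 15 of 16 alternatives. In the other, a test against a log2 change of 0.5, calls went from 6185 to 870 over all features (461 higher, 409 lower), from 3 lower and 2 higher to 0 and 0 among the 10 genes, and from 20 higher and 21 lower to 0 and 2 in the pathway lists, since that test asks for a larger change. With voom on rebuilt reads, 4 of the 10 genes were higher; the cause was not tested. With median-of-ratios scaling 3126 features were higher and 3074 lower, against 3393 and 2792. Values near 0 turned sign: HSPC300 without spo replicate 3 (0.01, with -0.04 to 0.01 over all left-out libraries), Rac1 with library weights (-0.01), median-of-ratios scaling (-0.00092) and without spo replicate 2 (-0.02, with -0.02 to 0.04 over all left-out libraries), and the log2 difference of Hem over SCAR without wild-type replicate 3 (-0.00033) or spo replicate 3 (-0.02), with -0.02 to 0.06 over all left-out libraries. With the replicate number as a block, 6086 features and the same 5 of the 10 genes were called. The ratios then had exact p of 0.25 or more, but 0.25 is the smallest p that 3 pairs allow. These p-values therefore say nothing on whether the ratios weaken. WASp and HSPC300 had the fewest reads, 1239 to 4616 per library.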
